A study of Mus musculus with 6 samples.

Results

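Male germ cells carry their own versions of several mitochondrial proteins. The data here concern 10 genes: the testis forms Cyct, Cox6b2, Cox7b2 and Cox8c, the general forms Cycs, Cox6b1, Cox7b and Cox8a of the same 4 proteins, and the subunit IV genes Cox4i1 and Cox4i2. They were taken by symbol from a table of 53700 genes, and each symbol matched 1 row. RNA had been sequenced from primary spermatocytes, the germ cells in meiotic prophase, sorted by flow cytometry from testes of adult C57BL/6 mice aged 8 weeks. There were 3 libraries from circSry knockout mice (circSry KO), circSry being the circular transcript of the male-determining gene Sry, and 3 from wild-type mice (WT). The labels do not say whether each library came from its own mouse, so the p-values cover the spread among these libraries, which may be technical. They also do not say how the knockout was made.

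Cytochrome c is the small heme protein that carries electrons from complex III to complex IV of the respiratory chain, and its escape from mitochondria starts the apoptosome. Complex IV, cytochrome c oxidase, passes those electrons to oxygen. Its catalytic core is coded by mitochondrial DNA and is surrounded by small nuclear-coded subunits, several of which exist as tissue forms. Cyct replaces Cycs as spermatogenesis proceeds and persists in sperm, while Cox6b2, Cox7b2 and Cox8c are oxidase subunit forms of the testis. Cox4i2 is a form of subunit IV known from lung and hypoxic tissue.

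The 10 genes lie apart in the genome (GENCODE M21, GRCm38). Cyct is on chromosome 2 from 76353942 to 76360450 on the minus strand, and Cycs on chromosome 6 from 50562563 to 50566538 on the minus strand. Cox6b2 and Cox6b1 are both on chromosome 7, on the minus strand, from 4751792 to 4753094 and from 30616861 to 30626151. Cox7b2 is on chromosome 5 and Cox8c on chromosome 12, while Cox7b is on the X chromosome, which is silenced in pachytene spermatocytes. Cox8a is on chromosome 19, Cox4i1 on chromosome 8 and Cox4i2 on chromosome 2. Exons of Cox4i1 share 154 bases with Emc8 on the opposite strand, and the library kit did not mark strand, so some of its reads may belong to Emc8. For Cycs, 9 other annotated genes shared at least 200 bases at 90% identity or more, up to 99.9%. Together they were assigned at most 10.3 counts in a library, against 106 to 183 for Cycs itself. That number does not bound reads of these genes that were assigned to Cycs, which was not tested.

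Promoter sequences were available for 7 of the 10 genes (RefSeq, GRCm38.p6; 250 bases before to 50 after the start). Those of the cytochrome c pair, whose balance varied most between libraries, and of the subunit VIb pair, whose TPM ratio, though not its count ratio, lay apart in the genotypes, are printed 5′ to 3′ on the minus strand. Capitals mark matches to the cyclic AMP response element TGACGTCA, its core TGACG and the CCAAT box, on either strand.
Cyct, chr2:76360404-76360703: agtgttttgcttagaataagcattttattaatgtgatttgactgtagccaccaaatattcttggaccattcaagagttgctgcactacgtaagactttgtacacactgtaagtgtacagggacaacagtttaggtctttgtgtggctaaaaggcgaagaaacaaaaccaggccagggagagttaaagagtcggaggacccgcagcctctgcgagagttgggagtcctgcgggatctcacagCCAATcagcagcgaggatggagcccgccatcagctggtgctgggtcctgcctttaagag
Cycs, chr6:50566520-50566819: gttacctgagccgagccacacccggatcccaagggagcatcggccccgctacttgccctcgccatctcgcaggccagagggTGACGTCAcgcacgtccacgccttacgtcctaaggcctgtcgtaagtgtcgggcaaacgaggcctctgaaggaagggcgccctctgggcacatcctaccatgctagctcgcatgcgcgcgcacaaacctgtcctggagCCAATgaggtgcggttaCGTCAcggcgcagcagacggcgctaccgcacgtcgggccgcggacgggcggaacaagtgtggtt
Cox6b2, chr7:4753045-4753344: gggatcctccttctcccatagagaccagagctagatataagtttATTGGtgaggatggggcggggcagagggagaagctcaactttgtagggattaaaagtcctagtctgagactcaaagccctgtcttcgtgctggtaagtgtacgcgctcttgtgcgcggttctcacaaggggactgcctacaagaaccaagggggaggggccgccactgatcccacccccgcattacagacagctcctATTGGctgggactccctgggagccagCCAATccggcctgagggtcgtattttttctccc
Cox6b1, chr7:30626065-30626364: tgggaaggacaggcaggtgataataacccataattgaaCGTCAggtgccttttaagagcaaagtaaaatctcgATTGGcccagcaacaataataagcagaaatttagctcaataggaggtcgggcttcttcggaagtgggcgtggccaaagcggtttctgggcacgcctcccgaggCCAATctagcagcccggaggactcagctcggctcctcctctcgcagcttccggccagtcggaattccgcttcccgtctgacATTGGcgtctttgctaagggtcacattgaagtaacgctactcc
The full response element was present in Cycs at position -169 and in none of the other 6 promoters, against 1.79% of 32851 promoters in the table. The core TGACG, which the full element contains, was in 3 of 4 general and 1 of 3 testis promoters, against 20.8% of all. CCAAT was present in each of the 7, against 37.4% of all, and the NRF1 motif in none, against 4.6%. Of the 4 printed, the Cycs window was richest in G and C, at 65%, and that of Cyct poorest, at 48.3%. These are matches of letters, and no binding was measured.

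The libraries held 8191397 to 9294723 estimated counts in circSry KO and 7400360 to 8422943 in WT. Sry itself had 0 counts in all 6 libraries. Counts per gene do not tell circular from linear transcripts. With 0 counts in WT as well, the genotype was left without a check here. circSry KO replicate 3 stood apart: it had 22202 genes with a count, against 23928 to 26121 elsewhere. When tested genes were divided by transcript length into 5 classes, the class with the shortest transcripts had a median log2 level of 1.04 over the WT mean in that library and the class with the longest -0.75. The same medians were 0.65 and -0.36 in circSry KO replicate 1, and 0.20 and 0.10 in replicate 2. Of the isoform genes tested, 8 of 9 belong to the shortest class (1480 bases or less), with Cycs the exception at 3123 bases. The edgeR fold changes of the isoform genes are therefore given with and without circSry KO replicate 3 and after removal of the length trend. The ratios of testis to general forms, the marker sums and the comparison of profiles were not corrected for that trend.

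Within each library the testis forms far outnumbered the general forms. Levels of different genes are compared in TPM, the authors' values scaled to transcript length and library total. The 4 testis forms together reached 3889, 2443 and 7648 TPM in circSry KO replicates 1, 2 and 3, and 4023, 4420 and 4472 TPM in WT replicates 1, 2 and 3. The 4 general forms together reached 139, 118 and 190 TPM in the circSry KO libraries and 116, 156 and 128 TPM in the WT libraries. Testis forms thus made up 95.4% to 97.6% of the paired transcripts in circSry KO and 96.6% to 97.2% in WT.

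**Figure D1:**
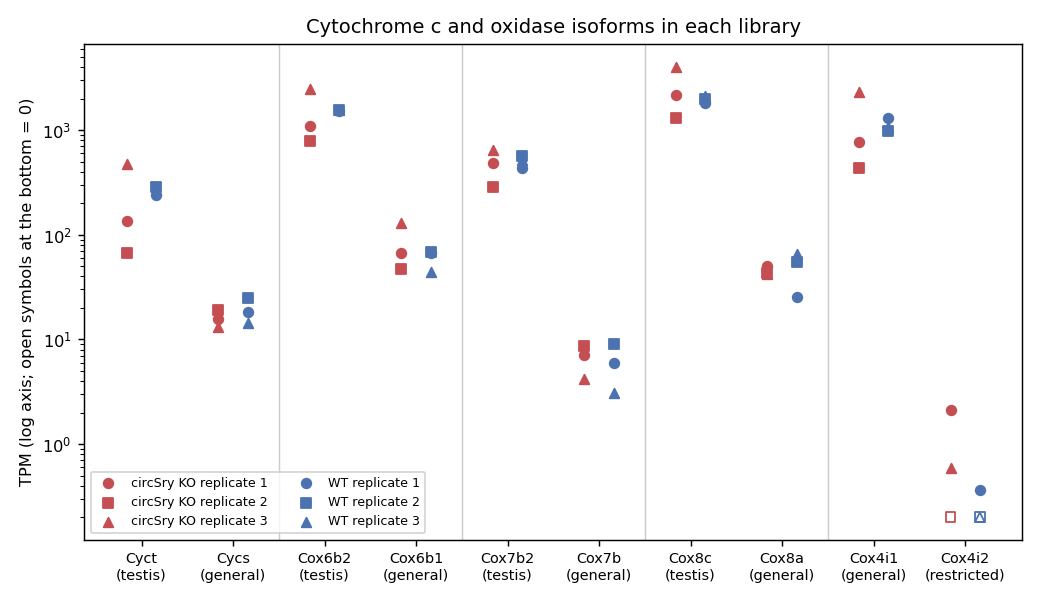
TPM of each gene (log axis) in each library, circSry KO in red to the left of WT in blue, with 1 symbol per replicate number. Each testis form lies above the general form of its pair in all 6 libraries, and Cox4i2 is at 0 in 3 libraries (open symbols).

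Cox8c, the testis form of the smallest subunit, was the most abundant of the 10. It had 2159, 1302 and 4055 TPM in circSry KO replicates 1, 2 and 3, against 1811, 1997 and 2124 TPM in WT. It ranked 15th to 51st of all genes by TPM in circSry KO and 29th to 55th in WT. Cox8a, its general counterpart, had 50.2, 43.6 and 42.0 TPM in circSry KO and 25.5, 54.6 and 65.9 TPM in WT. Cox6b2, the testis form of a subunit on the side of the enzyme where cytochrome c docks, had 1107, 788 and 2469 TPM in circSry KO and 1536, 1570 and 1566 TPM in WT. Its WT values were nearly equal, and its circSry KO values lay on both sides of them. Cox6b1 had 66.4, 46.8 and 130 TPM in circSry KO and 66.6, 67.9 and 44.1 TPM in WT. Cox7b2 had 488, 287 and 648 TPM in circSry KO and 437, 566 and 514 TPM in WT. The X-linked Cox7b, which codes for a membrane-spanning subunit, had 7.08, 8.59 and 4.20 TPM in circSry KO and 5.98, 9.03 and 3.09 TPM in WT, from only 13 to 33 counts per library.

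Cyct was the lowest of the testis forms in each library. It had 135, 67.2 and 477 TPM in circSry KO and 239, 287 and 269 TPM in WT, while Cycs had 15.6, 19.1 and 13.0 TPM in circSry KO and 18.1, 24.9 and 14.5 TPM in WT. Cox4i1, the general form of a regulatory subunit, did not share the low level of the other general forms. It had 766, 437 and 2292 TPM in circSry KO and 1318, 985 and 1077 TPM in WT. Cox4i2 had 8, 0 and 3 counts in circSry KO and 1, 0 and 0 in WT, too few to be tested, and a count of 0 allows up to 3 counts, or 0.346 to 0.350 CPM in those libraries (counting error only).

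The order by TPM was Cox8c, Cox6b2, Cox4i1, Cox7b2, Cyct, Cox6b1, Cox8a, Cycs, Cox7b and Cox4i2 in 5 of 6 libraries. In WT replicate 3, Cox8a stood above Cox6b1. Over the 3 WT libraries that pair of neighbours overlapped, and no other neighbours did. Over the 3 circSry KO libraries, neighbours overlapped from Cox8c down to Cox8a, and Cox8a, Cycs, Cox7b and Cox4i2 did not overlap one another. In the 5 most abundant genes circSry KO replicate 3 was the highest and replicate 2 the lowest library.

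The second comparison was the balance of each pair within a library, which does not depend on library totals. A ratio of TPM does still depend on the length scaling applied in each library. For subunit VIb, Cox6b2 was 16.7, 16.8 and 18.9 times as abundant as Cox6b1 in circSry KO, against 23.1, 23.1 and 35.5 times in WT, by TPM. All 3 circSry KO libraries lay below all 3 WT libraries. The log2 ratio averaged 4.11 ± 0.11 in circSry KO and 4.71 ± 0.35 in WT (SD, n = 3 each), a difference of -0.61 with an exact two-sided permutation p of 0.10. That is the smallest p that 3 against 3 libraries allow, and adjusted over the 4 pairs it was 0.40. The transcripts are of like length, 585 and 618 bases at the longest. The separation was present in TPM and not in the counts themselves. Count ratios were 12.8, 13.1 and 19.6 in circSry KO and 17.7, 17.5 and 26.5 in WT, so that circSry KO replicate 3 exceeded a pair of WT libraries. In circSry KO replicate 3 the TPM ratio of 18.9 was below the count ratio, while in every other library it was above. The separation thus rested on the length scaling of circSry KO replicate 3.

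For cytochrome c, Cyct was 8.70, 3.52 and 36.8 times as abundant as Cycs in circSry KO and 13.2, 11.5 and 18.5 times in WT, by TPM. Replicates 1 and 2 of circSry KO lay below and replicate 3 above all WT libraries. The share of Cyct in the pair was 89.7%, 77.9% and 97.4% in circSry KO and 93.0%, 92.0% and 94.9% in WT. The log2 ratio averaged 3.30 ± 1.68 in circSry KO and 3.75 ± 0.33 in WT (SD, n = 3 each), a difference of -0.45 within the spread (exact permutation p = 0.70, adjusted 0.70). Without circSry KO replicate 3 the difference was -1.35 (exact permutation p = 0.10, the smallest possible), and without circSry KO replicate 2 it was 0.32. The transcripts of this pair differ most in length, 655 bases for Cyct and 3123 for Cycs. The length trend was not removed from this ratio, and its part in the spread was not tested.

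**Figure D2:**
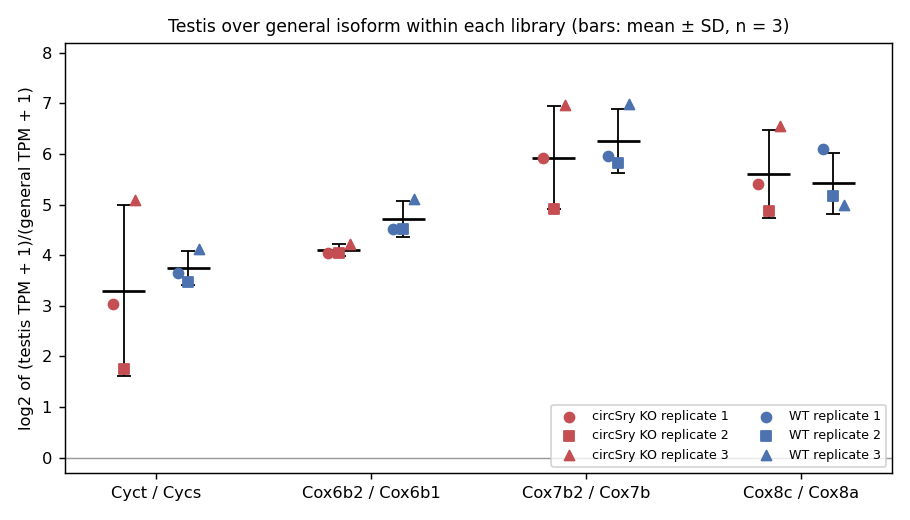
Log2 of the TPM ratio of testis over general form (1 TPM added to each) for the 4 pairs, circSry KO in red to the left of WT in blue, with the mean and SD of 3 libraries in black. The subunit VIb pair shows no overlap between the groups, at 4.04 to 4.23 in circSry KO and 4.51 to 5.12 in WT, and circSry KO replicate 2 has the lowest ratio of all 6 libraries for the other 3 pairs.

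The other pairs showed no separation. Cox7b2 was 68.9, 33.4 and 154 times as abundant as Cox7b in circSry KO and 73.1, 62.7 and 166 times in WT, a log2 difference of -0.33 (exact permutation p = 0.70). Cox8c was 43.0, 29.8 and 96.5 times as abundant as Cox8a in circSry KO and 71.0, 36.6 and 32.2 times in WT, a log2 difference of 0.19 (exact permutation p = 0.70). For both pairs the sign of the difference depended on single libraries: the Cox7b2 difference was 0.18 without circSry KO replicate 2 and 0.03 without WT replicate 3, and the Cox8c difference was -0.28 without circSry KO replicate 3 and -0.02 without WT replicate 3. Among 4 other germ cell pairs, the sperm glycolytic pair Pgk2 and Pgk1 had a TPM ratio of 16.7 to 71.3 in circSry KO and 22.1 to 39.7 in WT. The germ cell pyruvate dehydrogenase subunit Pdha2 stood at 13.4 to 41.6 times Pdha1 in circSry KO and at 48.4 to 126 times in WT. Ldhc, the sperm lactate dehydrogenase, stood at 4.6 to 5.74 times Ldha in circSry KO and at 3.11 to 4.6 times in WT, and the germ cell ADP/ATP carrier Slc25a31 at 5 to 20.8 times Slc25a4 in circSry KO and at 14.1 to 26.6 times in WT. These 4 pairs were not tested.

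Differences between the genotypes in each gene were tested on counts with edgeR and are given in CPM, counts scaled to library size with TMM factors. Of the 9 isoform genes with enough counts, 0 passed an adjusted p of 0.05, 0 reached an unadjusted p under 0.05 and DESeq2 called 0. Over all 16829 genes tested, edgeR called 0%, and 23.4% had an unadjusted p under 0.05 (13.6% higher and 9.84% lower in circSry KO). DESeq2 called 11.5% (6.9% higher and 4.65% lower). The median log2 fold change of circSry KO over WT was 0.64 for the 9 genes, all of them positive, against 0.12 for all genes tested, of which 55.3% were positive. The length correction turned the sign of 8 of the 9, to values of -0.74 up to nearly 0, and only Cycs stayed positive at 0.40.

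Cyct had 48.4, 19.0 and 264 CPM in circSry KO replicates 1, 2 and 3, against 77.4, 71.0 and 70.4 CPM in WT. The WT libraries were nearly alike, while circSry KO replicates 1 and 2 lay below and replicate 3 above all of them, a 13.9-fold span within the knockout group. The means were 110 ± 134 CPM in circSry KO and 72.9 ± 3.86 CPM in WT (SD, n = 3 each), and the log2 fold change of 0.60 ± 0.80 (SE) did not pass (edgeR adjusted p = 0.681). Its coefficient of variation was at the 97.7th percentile of all tested genes among circSry KO libraries and at the 3.94th among WT libraries. Without circSry KO replicate 3 its log2 fold change was -1.16 and edgeR called it lower (adjusted p = 0.034, range over the alternatives 0.034 to 0.894). That fit called 34.7% of all genes (18.5% higher and 16.2% lower), and its p-values are too small, since the library removed was chosen for standing apart. Cyct was the only 1 of the 9 called there.

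Cox8c had 410, 200 and 1198 CPM in circSry KO and 310, 256 and 280 CPM in WT. Its log2 fold change of 1.10 ± 0.59 (SE) had the smallest p of the 9 (edgeR adjusted p = 0.293), and without circSry KO replicate 3 it was 0.07. Cox6b2 had 277, 159 and 949 CPM in circSry KO and 347, 267 and 278 CPM in WT, with a log2 fold change of 0.64 ± 0.60 (SE; edgeR adjusted p = 0.55). Without circSry KO replicate 3 it was -0.49. Cox7b2 had 128, 59.9 and 263 CPM in circSry KO and 103, 101 and 96.3 CPM in WT. Its log2 fold change was 0.58 ± 0.49 (SE; edgeR adjusted p = 0.506), or -0.14 without circSry KO replicate 3. In all 4 testis forms, then, replicate 3 was the highest and replicate 2 the lowest of the 6 libraries. The coefficient of variation was 68.8% to 121% over the circSry KO libraries and 3.63% to 14.6% over the WT libraries.

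**Figure D3:**
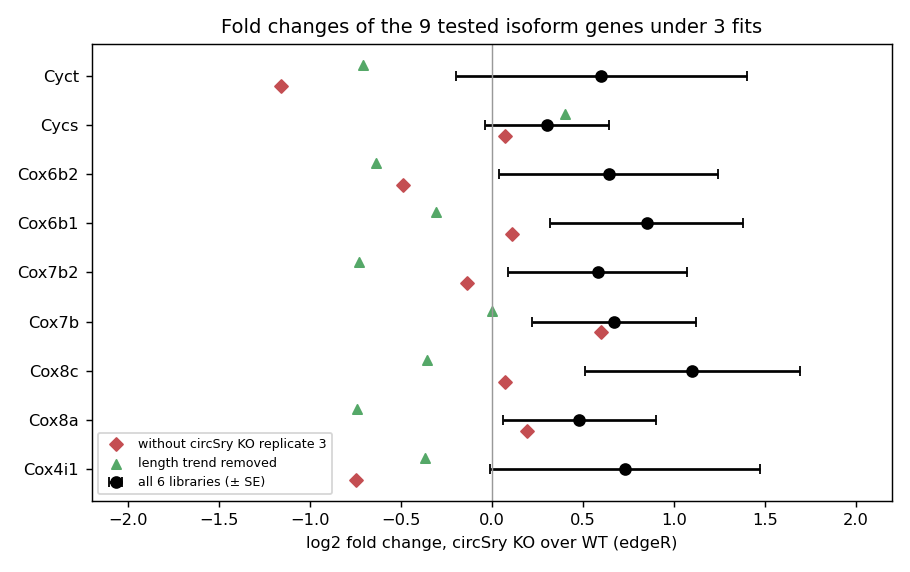
Log2 fold change of circSry KO over WT from edgeR for the 9 tested genes: all 6 libraries in black with the SE, without circSry KO replicate 3 in red, and after removal of the length trend in green. All black points are positive and none passed the test. Cyct has the lowest value without circSry KO replicate 3, -1.16.

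The general forms divided by how far they followed this pattern. Cox4i1 had 324, 147 and 1433 CPM in circSry KO and 512, 295 and 341 CPM in WT, a 9.77-fold span with the same highest and lowest library as the testis forms. Its log2 fold change was 0.73 ± 0.74 (SE; edgeR adjusted p = 0.576), or -0.75 without circSry KO replicate 3. Cox6b1 had 21.7, 12.1 and 48.3 CPM in circSry KO and 19.7, 15.3 and 10.5 CPM in WT, with a log2 fold change of 0.85 ± 0.53 (SE; edgeR adjusted p = 0.358), or 0.11 without circSry KO replicate 3. Cycs spanned only 1.89-fold, with 16, 16.8 and 23.3 CPM in circSry KO and 14.7, 18.4 and 12.4 CPM in WT, and a log2 fold change of 0.30 ± 0.34 (SE; edgeR adjusted p = 0.619), or 0.07 without that library. Cox8a had 13.5, 9.35 and 17.5 CPM in circSry KO and 6.18, 10 and 12.7 CPM in WT, a log2 fold change of 0.48 ± 0.42 (SE; edgeR adjusted p = 0.518), or 0.19 without it. Cox7b had 3.32, 3.81 and 3.70 CPM in circSry KO, all above the 2.47, 2.80 and 1.52 CPM in WT, a log2 fold change of 0.67 ± 0.45 (SE; edgeR adjusted p = 0.391), or 0.60 without circSry KO replicate 3. By CPM it was the only 1 of the 9 with no overlap between the groups, where 14.1% of all tested genes lay higher in this way and 28.5% in either direction. By TPM its groups overlapped. WT replicate 2 was the highest library at 9.03 TPM, and circSry KO replicate 3 at 4.2 TPM lay below WT replicate 1 at 5.98 TPM.

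Because the genes are short, their levels were set beside all 1029 tested genes whose longest transcript has 400 to 800 bases. Relative to the WT mean, those genes had a median log2 of 0.92, 0.48 and 1.40 in circSry KO replicates 1, 2 and 3. In replicate 3 the testis forms stood at 1.85 for Cyct, 1.68 for Cox6b2, 1.38 for Cox7b2 and 2.09 for Cox8c, the last alone above the upper quartile of 1.87. In replicate 1 they stood at -0.58, -0.09, 0.35 and 0.54 in the same order, all below the median and Cyct and Cox6b2 below the lower quartile of 0.11. In replicate 2 they stood at -1.91, -0.89, -0.74 and -0.49, all but Cox8c below the lower quartile of -0.51. The general Cox4i1 stood at -0.20, -1.34 and 1.94 in replicates 1, 2 and 3, below the lower quartile in replicates 1 and 2 and above the upper quartile in replicate 3. Cox6b1 stood at 0.55, -0.27 and 1.69 and Cox8a at 0.52, 0.01 and 0.88, all 6 values within the quartiles. After removal of the length trend the log2 fold changes of the 4 testis forms were -0.71, -0.64, -0.73 and -0.36, with edgeR adjusted p of 0.291 or more.

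**Figure D4:**
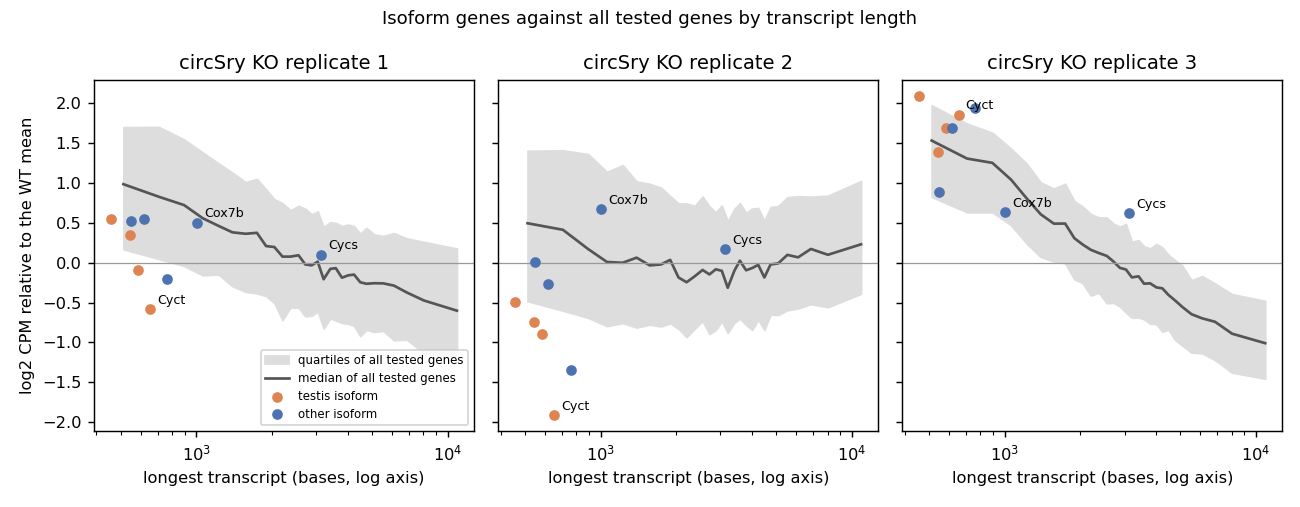
Log2 CPM relative to the WT mean against the longest annotated transcript (log axis) in each circSry KO library, with all tested genes as median (line) and quartiles (band), testis forms in orange and the other isoform genes in blue. Cyct lies at 1.85 in replicate 3, where short genes as a whole are high, and at -1.91 in replicate 2.

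Of 22 structural subunit genes, 18 were tested, 15 of them nuclear-coded and 3 mitochondrial. edgeR called 0, 0 had an unadjusted p under 0.05, and the median log2 fold change was 0.70 (-0.04 without circSry KO replicate 3, where 0 were called). Of the 8 nuclear-coded subunits outside the isoform pairs and subunit IV, 8 were highest in circSry KO replicate 3 and 7 lowest in replicate 2. Over all 15 nuclear-coded subunits, isoform genes included, the counts were 14 and 11. Among all tested genes 26% were highest in circSry KO replicate 3 and 25.7% lowest in replicate 2, and among those of 400 to 800 bases 51.2% and 25.7%. Cox7c and Cox7a2 had the smallest p on the list, with log2 fold changes of 1.14 ± 0.57 and 1.06 ± 0.54 (SE; edgeR adjusted p = 0.263 and 0.27), both near 0 and negative after removal of the length trend. The mitochondrially coded core subunits behaved otherwise. mt-Co1, the catalytic subunit with the oxygen-reducing site, had 2644, 5254 and 472 CPM in circSry KO and 2535, 7996 and 5028 CPM in WT, so that it was lowest in the library where the nuclear subunits were highest. Its log2 fold change was -0.89 ± 0.76 (SE; edgeR adjusted p = 0.505), and mt-Co2, which receives electrons from cytochrome c, had -0.27 ± 0.31 (SE; edgeR adjusted p = 0.627).

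**Figure D5:**
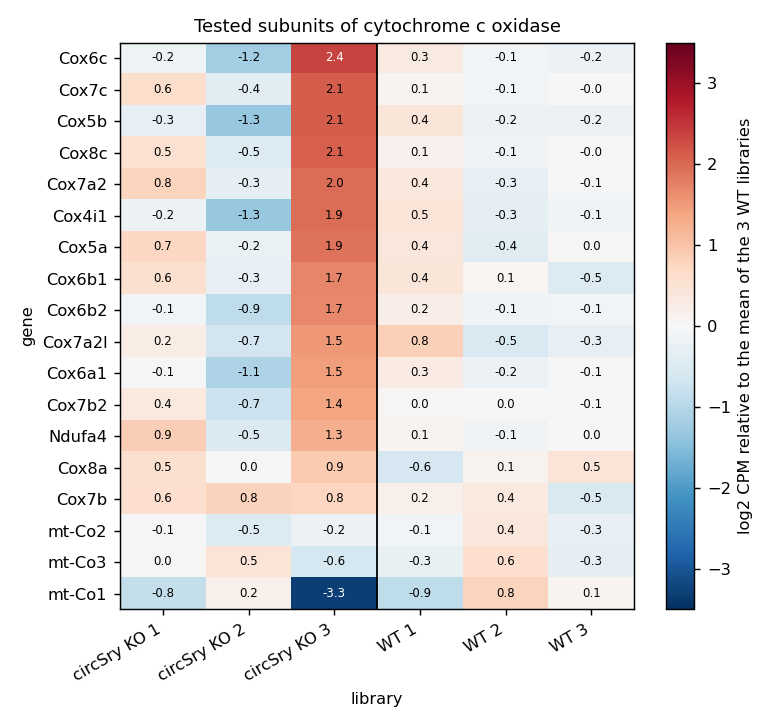
Log2 CPM of the 18 tested subunit genes relative to the mean of the 3 WT libraries, circSry KO libraries left of the line and WT libraries right of it, sorted by circSry KO replicate 3. The column of circSry KO replicate 3 is positive for all 15 nuclear-coded genes and negative for the 3 mitochondrial ones.

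Genes around cytochrome c and oxidase were counted by list, and edgeR called 0 in each. Over all tested genes 13.6% were higher and 9.84% lower at an unadjusted edgeR p under 0.05. All circSry KO libraries lay above all WT libraries in 14.1% of genes and below them in 14.3%. Such shares stand beside the counts and values of each list below. Factors of oxidase assembly and of copper and heme delivery had 26 tested members, 0 higher and 1 lower at an unadjusted p under 0.05. Their median log2 fold change was 0.35, or -0.53 without circSry KO replicate 3. The lower member, Cox15, which makes heme A for the oxidase, had 3.65, 4.85 and 1.79 CPM in circSry KO and 7.15, 15.4 and 11.5 CPM in WT (log2 fold change -1.72 ± 0.51 SE, edgeR adjusted p = 0.111, DESeq2 adjusted p = 0.0207). Coa8, an assembly factor, had 0.68 ± 0.32, Coa5 -0.55 ± 0.43 and Higd1a 0.82 ± 0.54 (SE), with edgeR adjusted p of 0.239 or more. Without circSry KO replicate 3, 7 of the 26 were called lower and 0 higher, in a fit that called 16.2% of all genes lower and 18.5% higher. These shares also stand beside the counts without that library for the lists that follow.

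Cytochrome c maturation genes and electron partners had 10 tested members, 1 higher and 2 lower at an unadjusted p under 0.05. Suox, the intermembrane sulfite oxidase that reduces cytochrome c, averaged 8.55 ± 5.29 CPM in circSry KO and 19.7 ± 5.14 CPM in WT (SD, n = 3 each; edgeR adjusted p = 0.198). Gfer, a sulfhydryl oxidase that passes electrons to cytochrome c, averaged 124 ± 66.0 CPM in circSry KO and 58.4 ± 23.4 CPM in WT (SD, n = 3 each; edgeR adjusted p = 0.207). The most abundant, Uqcrc1 of complex III and the superoxide dismutase Sod1, had log2 fold changes of 0.22 ± 0.44 and 1.01 ± 0.45 (SE; edgeR adjusted p = 0.796 and 0.223). Without circSry KO replicate 3, 4 of the 10 were called lower, Suox among them (edgeR adjusted p = 0.00543), and 0 higher.

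On the release side, 9 genes of the apoptosome and outer membrane were tested, 0 higher and 2 lower at an unadjusted p under 0.05. Bak1, a pore-forming protein through which cytochrome c leaves mitochondria, had 7.52, 8.65 and 8.29 CPM in circSry KO, all below the 23.9, 19.7 and 19.5 CPM in WT. Its log2 fold change was -1.36 ± 0.32 (SE; edgeR adjusted p = 0.0917, DESeq2 adjusted p = 0.00309). Casp9, the caspase activated by the apoptosome, averaged 9.92 ± 0.703 CPM in circSry KO and 16.8 ± 1.46 CPM in WT (SD, n = 3 each, edgeR adjusted p = 0.198). Its libraries again did not overlap, where 14.3% of all tested genes lay wholly lower in circSry KO. Vdac2 and Diablo had log2 fold changes of 0.34 ± 0.31 and -0.16 ± 0.60 (SE; edgeR adjusted p = 0.536 and 0.898). When circSry KO replicate 3 was left out, 10 were tested, of which 3 were called lower, with Bak1 and Diablo among them, and 2 higher.

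Mitochondrial transcription and biogenesis genes had 12 tested members, 2 higher and 1 lower at an unadjusted p under 0.05. Tfam, a transcription factor that packs mitochondrial DNA, had 184, 130 and 62.1 CPM in circSry KO, all above the 29.8, 22.9 and 20.4 CPM in WT. Its log2 fold change of 2.36 ± 0.44 (SE) had an edgeR adjusted p of 0.087, and DESeq2 called it (adjusted p = 8.84e-05). No gene had a smaller edgeR adjusted value, but the adjustment can give genes with different unadjusted values the same adjusted one. Tfam was therefore not shown to rank first among all genes. Polrmt, the mitochondrial RNA polymerase, averaged 21.7 ± 7.45 CPM in circSry KO and 49.2 ± 8.57 CPM in WT (SD, n = 3 each; edgeR adjusted p = 0.116, DESeq2 adjusted p = 0.034). Polg, the mitochondrial DNA polymerase, had a log2 fold change of -0.59 ± 0.28 (SE; edgeR adjusted p = 0.243). With circSry KO replicate 3 left out, 2 of the 12 were called higher, Tfam among them, and 2 lower, with Polrmt among them.

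Other energy genes with a testis form did not all follow Cyct. Of 7 tested, 2 were higher at an unadjusted p under 0.05 (edgeR adjusted p of 0.116 or more). Gapdhs, the glycolytic enzyme of the sperm tail, had 1193, 1035 and 379 CPM in circSry KO and 411, 180 and 225 CPM in WT (edgeR adjusted p = 0.116, or 0.0475 with no filter on low counts, and DESeq2 adjusted p = 0.0238). Pgk2 had 810, 699 and 339 CPM in circSry KO and 320, 185 and 287 CPM in WT. In these genes replicate 3 was the lowest of the circSry KO libraries, while for Cyct it was the highest, and replicate 1 was above replicate 2 in all 3 genes. Leaving out circSry KO replicate 3, 3 of the 7 were called higher, Gapdhs and Pgk2 among them, and 1 lower. Ldhc and Gk2 had log2 fold changes of 0.35 ± 0.40 and 0.69 ± 0.33 (SE; edgeR adjusted p = 0.631 and 0.242). Of the 8 general partners, 0 reached an unadjusted p under 0.05 (3 were called higher and 0 lower without circSry KO replicate 3), and Slc25a5, Pdha1, Ldha and Aldoa had log2 fold changes of 1.00, 1.13, -0.08 and 0.59.

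Markers of the cell types that a testis sort could hold were summed in CPM for each library. The 15 spermatocyte markers were all detected and summed to 7204, 6050 and 11843 CPM in circSry KO and 10902, 8736 and 9585 CPM in WT. This sum was highest in circSry KO replicate 3 and lowest in replicate 2, but Ldhc made up a large part of it. Ldhc alone had 3978, 2757 and 6975 CPM in circSry KO and 4377, 2809 and 3602 CPM in WT. Only 5 of the 15 were higher on average in circSry KO. Round spermatid markers summed to 2467 to 3304 CPM in circSry KO and 884 to 1616 CPM in WT, and elongating spermatid markers to 6768 to 17850 CPM in circSry KO and 2270 to 3619 CPM in WT, with 15 of 15 higher on average in circSry KO for each list. Within circSry KO, replicate 3 had the least of both. Sertoli markers summed to 265 to 455 CPM in circSry KO and 87.0 to 113 CPM in WT, and macrophage markers to 245 to 715 and 88.6 to 191 CPM in the same order. Leydig markers summed to 271 to 736 CPM in circSry KO and 628 to 913 CPM in WT, spermatogonia markers to 800 to 1134 and 811 to 1388 CPM, and peritubular and endothelial markers to 40.0 to 557 and 108 to 162 CPM, in the same order. No marker on any list was at 0 in all 6 libraries. The part of cell makeup and of the length trend in the values of the isoform genes was not tested, and in bulk samples fewer cells of a type and less RNA per cell cannot be told apart.

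The genes with the profiles most like each testis form were found among 12247 genes with a mean of at least 5 CPM, by the root mean square difference of centred log2 CPM over the 6 libraries. For Cyct they were Smdt1, a regulator of the mitochondrial calcium uniporter, at 0.105, the complex I subunit Ndufb6 at 0.147 and the oxidase assembly factor Smim20 at 0.167, against a median of 1.16 for all genes. For Cox6b2 they were the ribosomal protein gene Rpl9 at 0.040, the mitochondrial ribosomal protein gene Mrpl41 at 0.072 and 1110038B12Rik at 0.073. For Cox7b2 they were Mrpl36 at 0.071, Jtb at 0.085 and Sap18 at 0.099. For Cox8c they were the oxidase subunit Cox7c at 0.049, the ribosomal protein gene Rps13 at 0.072 and Sdhaf4, an assembly factor of complex II, at 0.076. The profile of Cox6b2 was closer to those of Cox7b2 and Cox4i1, at 0.24 each, than to that of its own general form Cox6b1, at 0.35. Cyct and Cycs differed by 1.00, in 4401st place among the genes set against Cyct. With 6 libraries, profiles of many genes come this close, and the measure says nothing of shared function.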

How the data were processed

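Spermatocytes were sorted after Hoechst staining, and their Trizol RNA went into Illumina TruSeq libraries, per the labels' protocols. For every gene and library the deposited table gives an expected count (an estimated count that need not be whole), a TPM and an FPKM, per the file headers. RSEM 1.3.2, STAR 2.7.0f and edgeR 3.28.1 are named in the submitters' processing notes, as are mm9 and GRCm39, without their roles, and for the annotation nothing is stated. Expected counts, deposited without normalization, were rounded here. TPM and FPKM deposited by the authors were used as they stand, and FPKM only as an alternative. A second deposited sheet of TPM values, which differed from the first in 1 gene of circSry KO replicate 3, served only for that comparison.

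The genotypes were compared by the quasi-likelihood F test of edgeR 4.0.16 under R 4.3.3 (TMM factors, filterByExpr, Benjamini-Hochberg adjustment over 16829 genes, threshold 0.05). Standard errors were derived by dividing each log2 fold change by the root of its F. Pair ratios were log2 of (TPM + 1) over (TPM + 1), tested by exact permutation of the 6 libraries. Genes named from each list were the 2 with the smallest p and the 2 with the highest mean where none passed. Alternatives were RLE and upper-quartile factors, DESeq2 1.42.0, limma 3.58.1 (voom, and log2 TPM + 1 or + 0.1), a lowess length correction (span 0.3), all genes unfiltered, a minimum of 1 CPM in 3 libraries, a replicate block and each library left out. Gene positions and lengths came from GENCODE M21, whose build may not be the one used for counting. The edgeR steps were tested on simulated data with 50 changed genes at each size. They recovered 3 changes of 2-fold, 23 of 4-fold, 46 of 8-fold and 40 of 16-fold, with 1 false call. A gene that was not called may thus still differ. Changes of 2-fold were mostly missed, and only 46% of the 4-fold changes were recovered. The simulated data held no outlying library and no length trend, so recovery in the real data may differ. The members and lists were chosen with earlier results of these data known.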

Additional observations from a re-analysis of the deposited data

How the results depend on the processing

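Of the 9 isoform genes, only Cyct was called in any of the 16 alternatives, as lower without circSry KO replicate 3. The direction was less stable, and the cause was not tested. With the length trend removed, log2 fold changes were -0.71 for Cyct, -0.64 for Cox6b2, -0.31 for Cox6b1, -0.73 for Cox7b2, -0.00067 for Cox7b, -0.36 for Cox8c, -0.74 for Cox8a, -0.37 for Cox4i1, -0.01 for Cox7c, -0.07 for Cox7a2 and -0.14 for Ldhc. With limma on log2(TPM + 1) they were -0.69 for Cyct, -0.27 for Cox6b2, -0.16 for Cox7b2, -0.00067 for Cox8a, -0.29 for Cox4i1, -0.16 for Ldhc, -0.24 for Cycs, -0.37 for Uqcrc1, -0.15 for Vdac2 and -0.02 for Aldoa. Adding 0.1 TPM gave the same values except -0.25 for Cycs and a sign for Cox8a as reported. These TPM scales moved the median of all genes to -0.25 and -0.34, against 0.12. Cyct was -0.23 with limma-voom. Over left-out libraries log2 fold changes ran from -1.16 to 1.09 for Cyct, -0.49 to 1.04 for Cox6b2, -0.14 to 0.96 for Cox7b2, -0.75 to 1.20 for Cox4i1, -0.14 to 0.60 for Ldhc, -0.38 to 0.51 for Uqcrc1, -1.28 to 0.25 for Diablo, -0.46 to 0.22 for Ldha and -0.03 to 1.20 for Higd1a.

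Pair differences over left-out libraries ran from -1.35 to 0.32 for Cyct, -0.71 to -0.40 for Cox6b2, -0.84 to 0.18 for Cox7b2 and -0.28 to 0.56 for Cox8c. In CPM the Cox6b2 difference was -0.41 (exact permutation p = 0.30). Over all genes, 0 of 16829 were called in the main test, 869 of 31233 with no filter and 1943 of 16829 (11.5%) with DESeq2. Limma on log2 TPM + 1 and + 0.1 called 6 and 7 of 17772. Left-out libraries gave 0 to 6228 calls, the last of 17948 genes (34.7%) without circSry KO replicate 3. For all list members the main test called 0 of 90, no filter 2 of 95, DESeq2 5 of 90 and both limma scales 0 of 90. Left-out libraries gave 0 to 27 called members, the last of 91 without circSry KO replicate 3. Deviations from the group mean correlated at 0.01, 0.31 and -0.24 between same-numbered libraries 1, 2 and 3. Between libraries of unlike number they ran from -0.44 to 0.34. With 3 libraries a group, such correlations cannot decide whether the numbers pair the libraries. With the replicate block edgeR called 0 genes and Cyct was -0.28. The pair differences of -0.45, -0.61, -0.33 and 0.19 for Cyct, Cox6b2, Cox7b2 and Cox8c cannot change under such a block, since the layout is balanced. Their exact permutation p within blocks was 0.25 or more, and 0.25 is the smallest possible there. The ranking of like profiles was not recomputed. Cox7b (13 to 33 counts) and Cox8a (45 to 137) limit the precision of their ratios, and 3 libraries a group cannot reach an exact p under 0.10.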
